A study of Mus musculus with 6 samples.

Results

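Monoamines, acetylcholine and nitric oxide are made by small sets of enzymes that mark the neurons using them, and 10 of these genes (enzymes and the vesicular and plasma membrane transporters that go with them) were chosen by symbol: Th, Ddc, Slc18a2, Maoa, Maob, Hdc, Chat, Slc5a7, Slc10a4 and Nos1. Of the 10, 9 stand among the 13724 entries of the deposited gene table, and all 9 passed the filter of at least 1 RPKM in 3 of the 6 libraries, which left 12328 entries for testing. Expression of Hdc, the enzyme of histamine synthesis, was not analysed here. The libraries came from wild type C57Bl6/J mice exposed to warmth in 3 numbered warm challenges. Each challenge gave 1 immunoprecipitate (IP), RNA bound to ribosomes carrying phosphorylated ribosomal protein S6 (sites 244 and 247), and 1 input, the total RNA, so that both groups hold 3 libraries and share strain, genotype and warmth. Phosphorylated S6 follows neuronal activity, and setting IP against input asks which transcripts are enriched with it, but no group at another temperature is among the libraries. The dissected tissue was the anterior hypothalamus, labelled as preoptic neurons. The sources used here do not give the age, the sex or the number of animals behind a library, so the p-values measure only the spread between these libraries, which may be technical.

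Catecholamine synthesis begins with tyrosine hydroxylase (Th) and continues with aromatic amino acid decarboxylase (Ddc), the vesicular transporter VMAT2 (Slc18a2) packs the amine into vesicles, and the monoamine oxidases (Maoa, Maob) break it down. Acetylcholine is made by choline acetyltransferase (Chat) from choline taken up by the transporter encoded by Slc5a7, and Slc10a4 encodes a protein of cholinergic and monoaminergic synaptic vesicles. Neuronal nitric oxide synthase (Nos1) makes nitric oxide, a diffusible signal that acts on guanylate cyclase. In the preoptic and periventricular hypothalamus, Th marks local dopamine neurons, Nos1 marks neurons of the median preoptic area, and cholinergic neurons lie in the adjoining basal forebrain.

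Summed RPKM, a read count scaled by gene length and by library size, lay between 374708 and 496125 per IP library and between 384389 and 476059 per input. The absolute depth is unknown. Mean Spearman correlations across genes with the other libraries of the same group were 0.921 to 0.941 for IP and 0.956 to 0.970 for input, with IP 1 the lowest. Of the 12 markers set for the preoptic area and anterior hypothalamus 11 were listed. Of these, 3 were higher and 5 lower in IP in all 3 warm challenges, beside 14.0% and 37.5% of all genes tested. Nts stood at 126 to 201 RPKM in IP and 38.6 to 102 RPKM in input, and Oxt at 0.592 to 9.996 RPKM in IP and 5.71 to 120 RPKM in input. Of 9 tested 0 passed in limma. Blocking on the challenge number, Nts was higher (adjusted p = 0.0467) and Oxt lower (adjusted p = 0.0125). The tissue also held other cells. The 7 oligodendrocyte markers summed to 258 to 308 RPKM in IP and 878 to 998 RPKM in input. All 7 were lower in IP in all 3 challenges, beside 37.5% of all genes tested. In limma (a moderated linear model over all genes, on log2(RPKM + 1)) 6 of 7 passed the threshold of 0.05 on adjusted p, all lower, beside 3.29% of all genes. The 8 astrocyte markers summed to 36.6 to 109 RPKM in IP and 72.8 to 138 RPKM in input. The 4 listed erythroid markers summed to 202 to 567 RPKM in IP and 14.1 to 50.3 RPKM in input.

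None of the 9 genes passed an adjusted p of 0.05 in limma. Over all genes 516 of 12328, or 4.19%, passed, with 110 (0.892%) higher and 406 (3.29%) lower in IP, or 114 and 103 after each library was scaled to a common median, and 129 and 124 after quantile normalization. With the warm challenge as a block, 0 of the 9 genes passed as well, against 5.32% of all genes. At an unadjusted p under 0.05 the count was 1 of 9, Maoa, against 24.4% of all genes. The 9 log2 folds (IP minus input) ran between -0.64 for Slc18a2 and 0.67 for Th, with 3 positive, 6 negative and a median of -0.19, beside a median of -0.18 over all genes tested. Median scaling moved the median of all genes to -0.0053 and that of the 9 genes to -0.016. The 95% intervals were wide, running from -0.33 to 1.67 for Th and from -0.77 to 0.58 for Slc10a4, so the fractions cannot be called alike for these genes. Th and Nos1 were higher in IP in all 3 warm challenges, a pattern of 14.0% of all genes. Ddc, Slc18a2, Maoa and Slc5a7 were lower in IP in all 3, a pattern of 37.5% of all genes. Both fractions came from bulk tissue, so a fold does not say which cells held the transcript or how many did.

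**Figure D1:**
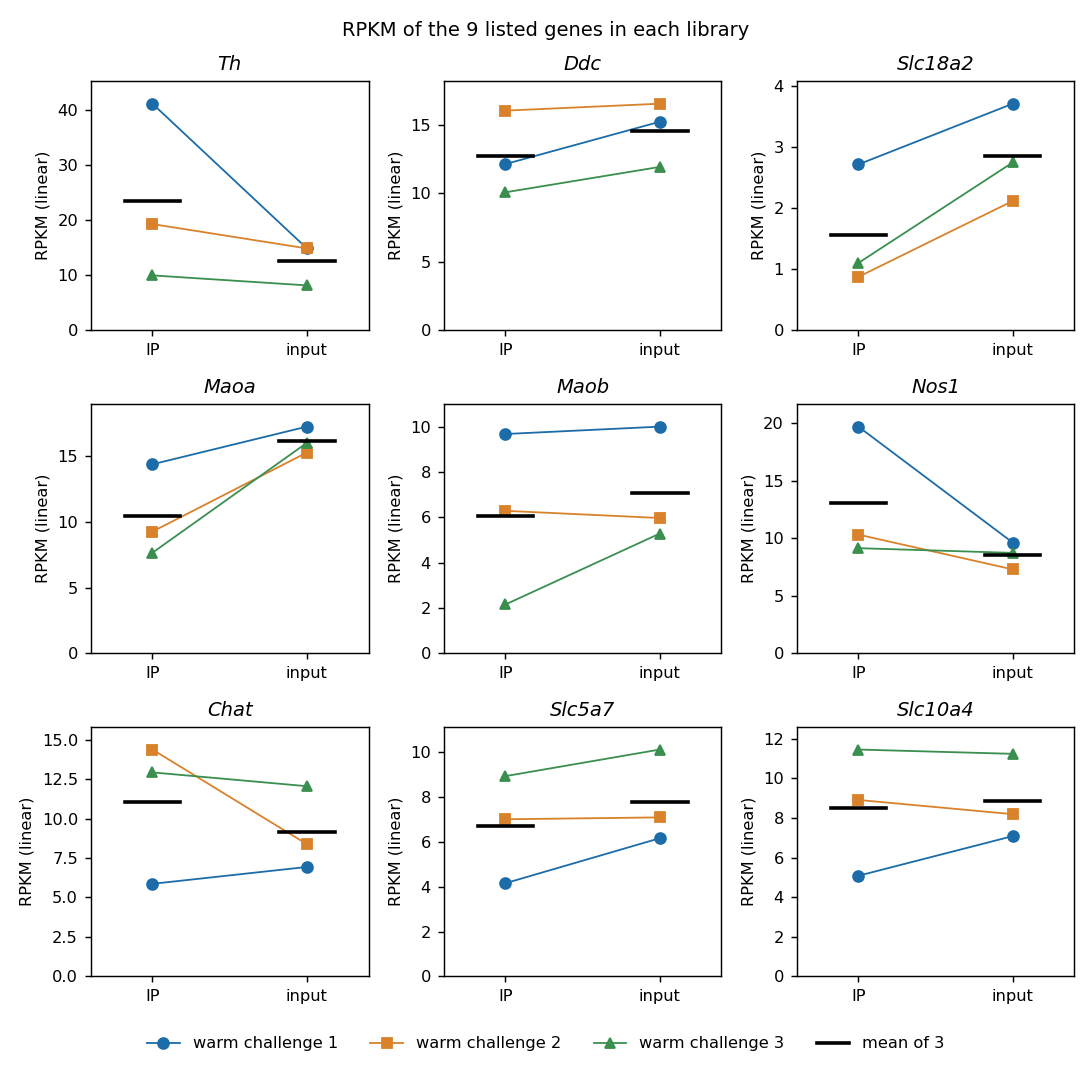
RPKM on a linear axis starting at 0 for each of the 9 listed genes, with IP on the left and input on the right, lines joining the libraries of 1 warm challenge and black bars for the mean of 3 libraries. Th and Nos1 stand highest in IP 1, at 41.1 and 19.7 RPKM, and Maoa is the 1 gene whose IP values all lie under its input values.

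Th stood at 41.1, 19.3 and 9.96 RPKM in IP 1, 2 and 3, against 14.9, 14.9 and 8.16 RPKM in input 1, 2 and 3. IP 1 was far above the other libraries, IP 3 lay within the range of the inputs, and IP exceeded the input of the same challenge 2.76, 1.30 and 1.22 times. The means were 23.4 ± 15.96 RPKM in IP and 12.6 ± 3.87 RPKM in input (SD, n = 3 each). The log2 fold was 0.67 (SE 0.45, adjusted p = 0.388 in limma), and 0.17 without IP 1 (adjusted p = 0.760). The difference between the means was smaller than the SD within IP.

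Ddc, the next enzyme, stood at 12.1, 16.03 and 10.1 RPKM in IP and at 15.2, 16.5 and 11.9 RPKM in input. The groups overlapped, and IP was slightly lower in each challenge (0.797, 0.969 and 0.845 times the input). Its log2 fold was -0.19 (SE 0.24, adjusted p = 0.675), with a 95% interval of -0.73 to 0.35, and median scaling moved it to -0.016. The ratio of Ddc to Th within a library, which needs no scaling between libraries, was 0.295, 0.832 and 1.011 in IP and 1.02, 1.11 and 1.46 in input. All 3 IP ratios lay under all 3 input ratios, IP 3 and input 1 being nearly equal. The mean log2 ratio was -0.67 ± 0.95 in IP and 0.25 ± 0.27 in input, a difference of -0.91 with an exact two-sided permutation p of 0.10, the smallest that 3 against 3 libraries can give. Over the 2 ratios set for testing, the other being Maob to Maoa, the Benjamini-Hochberg adjusted value was 0.20. Without IP 1 the difference was -0.37. Taken as pairs by challenge, an exact two-sided sign-flip test gave p = 0.25, the smallest that 3 pairs can give.

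Transcription of Th is known to respond to cAMP and activity through a cAMP response element (CRE), the binding motif of CREB family factors, close to its start site. RefSeq promoter windows (build GRCm38.p6, 250 bases before to 50 after the annotated start) were found for 9 of the 10 genes, in 10 entries, Hdc included. The full motif TGACGTCA, which reads the same on both strands, occurred in those of Th and Slc18a2, beside 1.79% of 32851 windows. The shorter core TGACG, or CGTCA on the other strand, is part of the full motif, and it occurred without the full motif in the windows of Chat, Maoa and Nos1. At least 1 core occurred in 20.8% of all windows, a share that includes windows with the full motif. The windows of Th and Slc18a2 are shown because they hold the full motif. Each runs from base -250 to base 10 relative to the start, on the strand of the gene, with the full motif in capitals.
Th promoter, chr7:142899986-142900245, minus strand: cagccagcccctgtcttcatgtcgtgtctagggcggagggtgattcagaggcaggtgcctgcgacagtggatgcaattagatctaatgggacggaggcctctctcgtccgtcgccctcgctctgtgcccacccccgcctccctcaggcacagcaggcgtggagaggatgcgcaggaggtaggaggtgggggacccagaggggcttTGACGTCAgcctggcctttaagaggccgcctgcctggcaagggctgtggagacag
Slc18a2 promoter, chr19:59260628-59260887, plus strand: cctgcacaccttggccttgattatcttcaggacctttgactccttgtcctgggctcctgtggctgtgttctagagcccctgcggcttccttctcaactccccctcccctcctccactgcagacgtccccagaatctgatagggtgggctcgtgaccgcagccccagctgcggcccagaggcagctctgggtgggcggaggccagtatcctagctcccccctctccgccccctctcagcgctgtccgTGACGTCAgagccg
In Th the motif covers bases -45 to -38, and in Slc18a2 bases -4 to 4, across the annotated start. A match of letters is a description and not a measured site of binding, and its relation to the folds was not tested.

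Slc18a2, which loads dopamine, noradrenaline, serotonin and histamine into vesicles, was the least abundant of the 9 genes. It stood at 2.72, 0.877 and 1.104 RPKM in IP and at 3.71, 2.12 and 2.75 RPKM in input. IP was 0.732, 0.414 and 0.401 times the input of the same challenge, yet the groups overlapped because IP 1 lay within the input range. The log2 fold was -0.64 (SE 0.30, adjusted p = 0.227), understated by the pseudocount of 1 at such levels, and -0.95 with a pseudocount of 0.1 (adjusted p = 0.229). Without IP 1 it was -0.94 (adjusted p = 0.0428), where 13.8% of all genes passed and 10.2% were lower, and with median scaling added to that omission -0.77 (adjusted p = 0.07998). The ratio of Th to Slc18a2, chosen after the values were seen and not tested, was 15.1, 22.0 and 9.03 in IP and 4.004, 7.005 and 2.96 in input. It was 3.77, 3.14 and 3.04 times higher in IP than in the input of the same challenge.

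Maoa, an oxidase of serotonin and noradrenaline on the outer mitochondrial membrane, stood at 14.4, 9.28 and 7.67 RPKM in IP and at 17.3, 15.3 and 16.03 RPKM in input. The groups did not overlap, but 23.5% of all genes were lower in IP without overlap. The means were 10.4 ± 3.52 RPKM in IP and 16.2 ± 0.998 RPKM in input (SD, n = 3 each). This gave a log2 fold of -0.63 (SE 0.25, adjusted p = 0.165). Without IP 1 the fold was -0.86 and passed (adjusted p = 0.0288), where 13.8% of all genes passed and 10.2% were lower. With median scaling added it did not pass (-0.70, adjusted p = 0.0624). Maob, the oxidase of phenylethylamine that astrocytes also hold, stood at 9.68, 6.29 and 2.16 RPKM in IP and at 10.004, 5.97 and 5.29 RPKM in input. IP 3 was the lowest library, the other IP libraries were 0.967 and 1.05 times their inputs, and the groups overlapped. Its log2 fold was -0.32 (SE 0.42, adjusted p = 0.684), and 0.17 without IP 3. The ratio of Maob to Maoa was 0.672, 0.678 and 0.281 in IP and 0.579, 0.390 and 0.330 in input. These ratios overlapped, and the mean log2 ratio differed by 0.26 (exact two-sided permutation p = 0.80, 0.80 adjusted over the 2 ratios). Taken as pairs by challenge, the exact sign-flip p was 0.75. Of the 8 astrocyte markers 0 passed in limma, and 1, Aqp4, was lower when blocking on the challenge number (adjusted p = 0.0400). Of the 8, 6 were lower in IP in all 3 challenges, as were 37.5% of all genes, Slc1a3 was lower in 2 of 3 and Aldh1l1 was higher in all 3. Gfap stood at 7.88, 2.97 and 3.31 RPKM in IP and 10.7, 9.02 and 11.0 RPKM in input, and Aldh1l1 at 4.87, 2.49 and 3.77 RPKM in IP and 3.12, 2.15 and 3.07 RPKM in input. Their part in the values of Maoa and Maob was not tested.

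**Figure D2:**
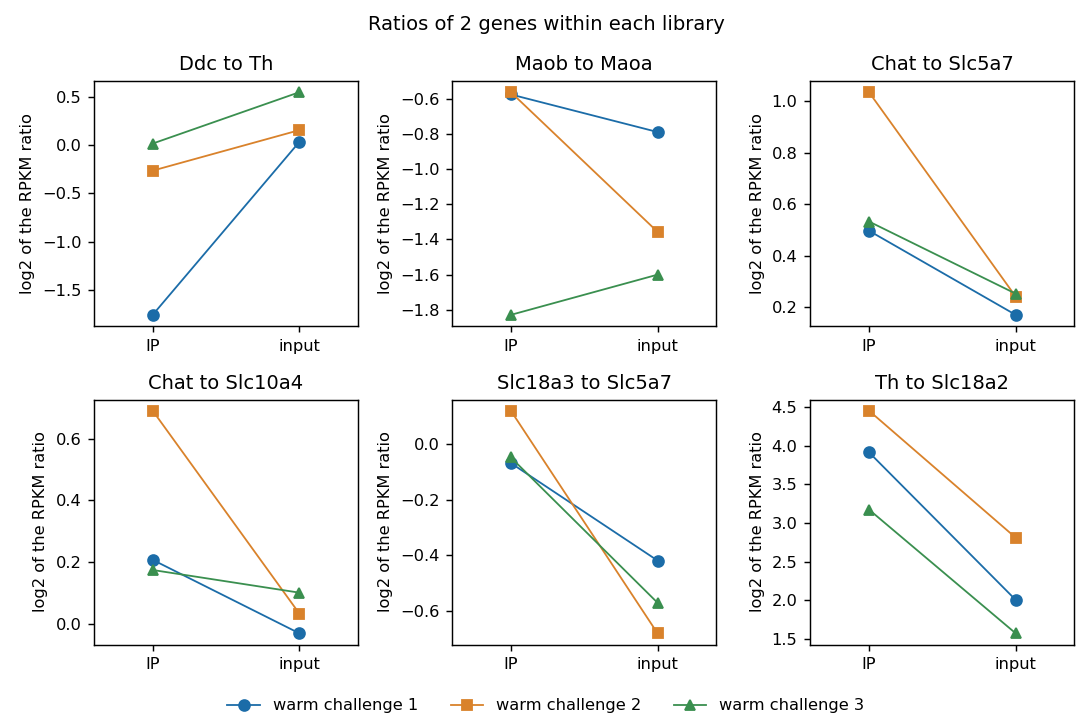
Log2 of the RPKM ratio of 2 genes within each library, with IP on the left and input on the right and lines joining the libraries of 1 warm challenge. The ratio of Ddc to Th is lower in IP in all 3 challenges, those of Chat to Slc5a7, Chat to Slc10a4, Slc18a3 to Slc5a7 and Th to Slc18a2 are higher, and that of Maob to Maoa overlaps.

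Further genes of amine metabolism came from lists set by role. Of 13 genes for synthesis and the tetrahydrobiopterin cofactor of Th, 8 were listed and tested, and 0 were higher and 0 lower in IP by limma (4.19% of all genes passed). Before adjustment 2 of the 8 fell under 0.05, beside 24.4% of all genes. Their median log2 fold was -0.25. Pts, which makes the cofactor, stood at 13.2, 19.5 and 19.9 RPKM in IP and at 28.4, 32.3 and 26.1 RPKM in input (log2 fold -0.71, adjusted p = 0.107). Qdpr, which recycles it, stood at 75.3, 88.7 and 55.5 RPKM in IP and at 135, 154 and 90.8 RPKM in input (log2 fold -0.77, adjusted p = 0.141). Both had every IP value under every input value, as did 23.5% of all genes. Gch1, which opens the pathway and sets its pace, stood at 1.86, 1.96 and 1.90 RPKM in IP and at 1.80, 1.42 and 0.335 RPKM in input, higher in IP without overlap, as were 6.85% of all genes (log2 fold 0.48, adjusted p = 0.338).

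Among 15 genes of amine transport and breakdown, 10 were listed and 8 tested, of which 0 were higher and 2 lower in IP by limma, beside 0.892% and 3.29% of all genes. Aldh1a1, an aldehyde dehydrogenase that makes retinoic acid and also clears the aldehyde of dopamine, was lower. It stood at 6.56, 4.06 and 3.03 RPKM in IP and at 14.7, 14.1 and 14.6 RPKM in input. The inputs were nearly equal, and every IP library lay far under the lowest input. The log2 fold was -1.53 (SE 0.26, adjusted p = 0.0236), and leaving out input 1, 2 or 3 or IP 2 or 3 ended the call (adjusted p up to 0.109). Sult1a1, a sulfotransferase of phenols, stood at 1.86, 1.095 and 0.453 RPKM in IP and at 4.97, 3.00 and 4.44 RPKM in input. Again IP was lower without overlap, as for 23.5% of all genes. Its log2 fold was -1.30 (SE 0.29, adjusted p = 0.0427), and the call ended after median scaling (adjusted p = 0.0800), after quantile normalization (adjusted p = 0.0818), with a pseudocount of 0.1 (adjusted p = 0.0570) and in the same 5 omissions (adjusted p up to 0.178). RefSeq places a pseudogene across each of these genes, and the sources used here do not say how shared reads were counted. The oligodendrocyte sum given above was lower in IP without overlap. The astrocyte sum was lower in IP in each challenge, but its ranges overlapped. Rgs5, a marker of mural cells (log2 fold -1.32, adjusted p = 0.0305 in limma), passed as lower. So did Ccdc153 (-1.70, adjusted p = 0.0465), 1 of 3 ependymal markers. The erythroid sum was higher in IP. The part of these cells in the folds of Aldh1a1 and Sult1a1 was not tested. Of the defining markers set for distant amine neurons, Aldh1a1 was the 1 listed of 4 for midbrain dopamine neurons, and 0 of 3 were listed for raphe serotonin neurons and 0 of 3 for noradrenaline neurons. Of 7 mast cell markers 1, Kit, was listed.

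The cholinergic genes varied between warm challenges in both fractions, and none passed the comparison of IP with input. Chat stood at 5.87, 14.4 and 12.9 RPKM in IP and at 6.94, 8.39 and 12.1 RPKM in input. Challenge 1 was lowest in both fractions, IP 2 was 1.72 times its input, and the groups overlapped. The log2 fold was 0.20 (SE 0.34, adjusted p = 0.761), and -0.019 without IP 2. Slc5a7 stood at 4.16, 7.02 and 8.94 RPKM in IP and at 6.17, 7.10 and 10.1 RPKM in input, with a log2 fold of -0.22 (SE 0.29, adjusted p = 0.697). Slc10a4 stood at 5.08, 8.92 and 11.5 RPKM in IP and at 7.09, 8.196 and 11.2 RPKM in input, with a log2 fold of -0.092 (SE 0.30, adjusted p = 0.890) that became 0.082 after median scaling. For both genes challenge 1 was lowest and challenge 3 highest in IP and in input, while the fractions overlapped. This order was not particular to cholinergic genes. The 4 listed neuron markers summed to 2604, 4758 and 6093 RPKM in IP and to 3417, 3899 and 4779 RPKM in input. Of these markers only Snap25, the most abundant, followed the order by itself. The share of all genes with this order was not computed.

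The cholinergic genes were also set against each other within each library. These ratios were chosen after the values were seen, were computed for all 6 pairs of Chat, Slc18a3, Slc10a4 and Slc5a7, and were not tested. The pairs share genes and are not separate observations. How many other gene pairs in the table separate the fractions was not computed. Slc18a3 encodes the vesicular acetylcholine transporter, and RefSeq places it within the Chat gene, so that reads of one may have been counted for the other. It stood at 3.97, 7.63 and 8.66 RPKM in IP and at 4.61, 4.43 and 6.82 RPKM in input (log2 fold 0.27, adjusted p = 0.627). The ratio of Chat to Slc5a7 was 1.41, 2.05 and 1.45 in IP and 1.12, 1.18 and 1.19 in input. The ratio of Chat to Slc10a4 was 1.15, 1.61 and 1.13 in IP and 0.979, 1.02 and 1.07 in input. The ratio of Slc18a3 to Slc5a7 was 0.954, 1.09 and 0.968 in IP and 0.748, 0.623 and 0.673 in input. In each of these 3, every IP library lay above every input. Slc18a3 to Slc10a4 (0.755 to 0.856 in IP, 0.540 to 0.651 in input) and Slc10a4 to Slc5a7 (1.22 to 1.28 in IP, 1.11 to 1.15 in input) were likewise higher in IP without overlap, and Chat to Slc18a3 overlapped (1.48 to 1.89 in IP, 1.504 to 1.89 in input).

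**Figure D3:**
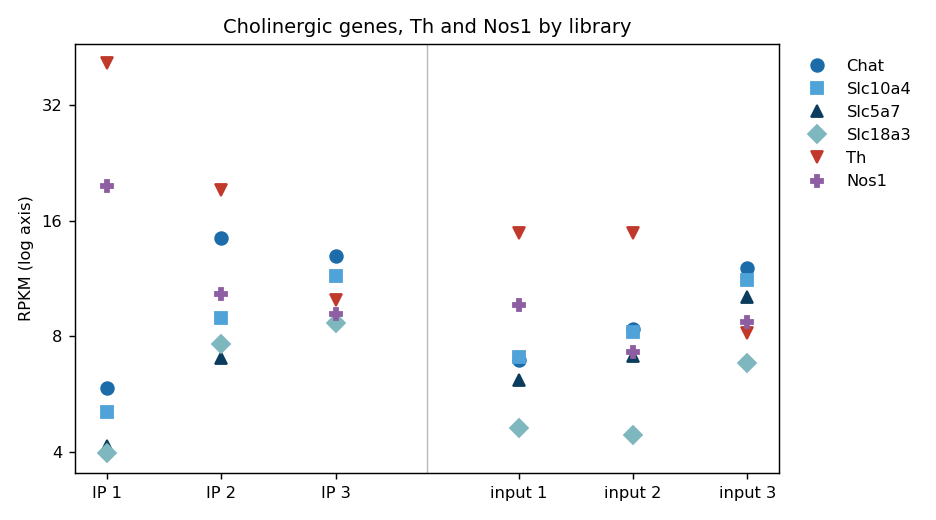
RPKM on a log axis for the cholinergic genes Chat, Slc10a4, Slc5a7 and Slc18a3 and for Th and Nos1, by library, with IP libraries on the left and inputs on the right. Chat, Slc10a4 and Slc5a7 are lowest in challenge 1 in both fractions, while Th and Nos1 are highest in IP 1. Slc18a3 is lowest in IP 1 among the IP libraries and in input 2 among the inputs.

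Of 16 further cholinergic genes 14 were listed and tested, with 0 higher and 0 lower in IP by limma (4.19% of all genes passed). An unadjusted p under 0.05 was reached by 2 of the 14, beside 24.4% of all genes. Their median log2 fold was -0.042. Ache, acetylcholinesterase, stood at 25.8, 21.3 and 26.6 RPKM in IP and at 16.5, 17.2 and 18.2 RPKM in input (log2 fold 0.48, adjusted p = 0.185). It was higher in IP without overlap, as were 6.85% of all genes. Slc44a2, a choline transporter-like gene, stood at 3.08, 2.21 and 2.90 RPKM in IP and at 4.30, 3.86 and 5.31 RPKM in input (log2 fold -0.56, adjusted p = 0.161). It was lower in IP without overlap, as were 23.5% of all genes. Lhx8, a transcription factor of basal forebrain cholinergic neurons, stood at 15.9, 48.6 and 51.2 RPKM in IP and at 37.1, 54.9 and 59.6 RPKM in input. Ngfr, the p75 neurotrophin receptor of those neurons, stood at 3.22, 7.39 and 7.71 RPKM in IP and at 7.92, 10.7 and 11.1 RPKM in input. Both were lowest in challenge 1 in either fraction, as Chat was, and neither passed (adjusted p = 0.483 for Lhx8 and 0.213 for Ngfr). They were picked after their values were seen, and other genes of the list went both ways. Prima1 was also lowest in challenge 1 in both fractions, but among the inputs Slc18a3, Isl1 and Slc44a1 were lowest in input 2. The share with this order, in the list or over all genes, was not computed.

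Nos1 stood at 19.7, 10.3 and 9.15 RPKM in IP and at 9.64, 7.31 and 8.74 RPKM in input. IP 1 was the highest library, as for Th, IP 3 lay within the input range, and IP was 2.05, 1.41 and 1.05 times the input of the same challenge. The means were 13.1 ± 5.79 RPKM in IP and 8.56 ± 1.18 RPKM in input (SD, n = 3 each). The log2 fold was 0.49 (SE 0.29, adjusted p = 0.337), and 0.17 without IP 1 (adjusted p = 0.604). RefSeq places 2 noncoding genes across Nos1, as across Ddc, and the sources used here do not say whether counting used strand. Of 20 genes around nitric oxide 19 were listed and 17 tested, with 0 higher and 0 lower by limma (4.19% of all genes passed) and a median log2 fold of -0.056. An unadjusted p under 0.05 was reached by 4 of the 17, beside 24.4% of all genes. Ass1, which recycles citrulline to renew the arginine that Nos1 uses, stood at 126, 120 and 118 RPKM in IP and at 76.5, 72.1 and 74.4 RPKM in input. Libraries of 1 fraction were nearly equal and the fractions far from overlapping, but the log2 fold of 0.70 (SE 0.21) had an adjusted p of 0.0918. Of all genes 6.85% were higher in IP without overlap. Dlg4, the postsynaptic scaffold PSD-95 that binds Nos1, stood at 129, 164 and 237 RPKM in IP and at 97.8, 91.9 and 106 RPKM in input (log2 fold 0.79, adjusted p = 0.125). It passed without IP 1 (0.99, adjusted p = 0.0360), where 13.8% of all genes passed. Slc7a1, an arginine transporter, stood at 12.3, 6.32 and 5.70 RPKM in IP and at 4.51, 3.70 and 3.82 RPKM in input (log2 fold 0.79, adjusted p = 0.130). Ddah1, which breaks down a natural inhibitor of the enzyme, stood at 60.9, 67.0 and 70.1 RPKM in IP and at 84.6, 105 and 103 RPKM in input (log2 fold -0.55, adjusted p = 0.163).

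**Figure D4:**
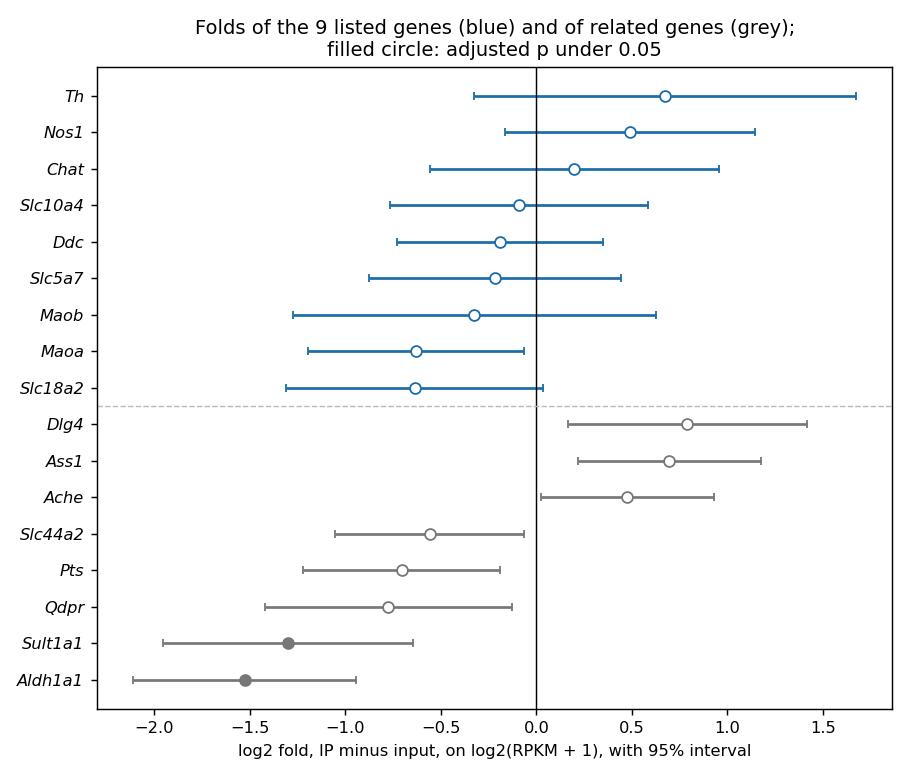
Log2 fold of IP over input on log2(RPKM + 1) with its 95% interval in limma, for the 9 listed genes in blue above the dashed line and 8 related genes in grey below it. Aldh1a1 (-1.53) and Sult1a1 (-1.30), drawn filled, passed an adjusted p of 0.05.

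In mean RPKM, a level per length, the order in IP was Th, Nos1, Ddc, Chat, Maoa, Slc10a4, Slc5a7, Maob and Slc18a2, and the ranges of all neighbours overlapped. In input it was Maoa, Ddc, Th, Chat, Slc10a4, Nos1, Slc5a7, Maob and Slc18a2, and only the last step, Maob at 7.09 ± 2.55 RPKM against Slc18a2 at 2.86 ± 0.802 RPKM (SD, n = 3), was free of overlap. Maoa thus stood 5th in IP at 10.4 RPKM and 1st in input at 16.2 RPKM. Likeness of profile was measured, with no test, as the root mean square distance between centred log2(RPKM + 1) values over the 6 libraries, among 55 other genes of these lists. Slc5a7 and Slc10a4 were nearest to each other at 0.070, beside a spread of 0.35 for Slc5a7 itself. Chat was nearest to Slc18a3 at 0.15, Slc18a2 and Maoa to each other at 0.18, and Nos1 to Slc7a1 at 0.16. Th was nearest to Slc7a1 at 0.39, followed by Nos1 at 0.42, Ddc to Asl at 0.17 and Maob to Prmt1 at 0.38. The spreads of the genes themselves were 0.71 for Th, 0.24 for Ddc, 0.60 for Maob, 0.43 for Chat, 0.47 for Slc18a2, 0.40 for Maoa and 0.42 for Nos1. For Th, Ddc and Maob the distance was thus a large part of the spread. The 6 libraries share 3 warm challenges and are not independent.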

How the data were processed

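The authors deposited linear RPKM per gene, per the file headers, in 1 table where each library has its own column. The submitters' processing notes name build mm9. Aligner, counter and annotation: not given in the sources used here. Every listed value lies above 0.1 RPKM, the smallest being 0.101. RPKM holds no counts, so depth and counting error are unknown.

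The 10 genes, the related lists and the tests were chosen with earlier results of these data known. Values were analysed as log2(RPKM + 1) for entries with at least 1 RPKM in 3 libraries, with limma 3.58.1 (trend, two-sided, Benjamini-Hochberg over all genes tested, threshold 0.05) in R 4.3.3. The fit was also run on simulated data. There the planted folds were larger than those of the listed genes and lay in more abundant genes. That run therefore does not show how well folds like theirs would be found. Ratios within libraries were tested with exact permutation, and as pairs with exact sign flips, in Python 3.11.15 and scipy 1.17.1. Symbols were matched as listed or through RefSeq synonyms, and promoter windows came from RefSeq. Named were the 10 genes, related genes past the threshold with or without the block, the 2 with the smallest p in each list, and the nearest profile of each gene. Gch1, Lhx8, Ngfr, Slc18a3, Slc7a1, Ddah1, Ddah2, Nts, Oxt, Gfap, Slc1a3, Aldh1l1, Aqp4 and Kit were added after their values were seen. So were Prima1, Isl1, Slc44a1, Snap25, Rgs5 and Ccdc153. Values of some list genes are not reported here.

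IP and input share a warm challenge number in the labels and were taken as paired on that ground. Deviations from the group means correlated by 0.055, 0.61 and 0.27 across genes for challenges 1, 2 and 3. IP 1 correlated more with input 3 (0.18) than with its own input, while IP 2 and IP 3 correlated most with their own. The fit given has no block, and a replicate block was an alternative beside scaling, pseudocount, filter, trend and single omissions.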

Additional observations from a re-analysis of the deposited data

How the results depend on the processing

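With the warm challenge as a replicate block, 656 genes passed against 516 without it, and the same numbers of the 9 listed genes (0) and of related genes (2, Aldh1a1 and Sult1a1) passed. The count over all genes was 217 after median scaling, 253 after quantile normalization, 21 to 1693 when 1 library was left out, and 1140 without IP 1 with median scaling, an alternative added after seeing the data. Of the 9 listed genes 0 passed under every alternative but the omission of IP 1, where Maoa and Slc18a2 did (0 to 2 over the omissions), and 0 passed when median scaling was added to it. Of the related genes 1, Aldh1a1, passed after median scaling (1), quantile normalization (1), with a pseudocount of 0.1 (1) or a filter of 5 RPKM (1). Over the omissions 0 to 4 related genes passed, the 4 without IP 1 being Aldh1a1, Sult1a1, Dlg4 and Ddah2, and 5 with median scaling added, Ass1 being the fifth. Without IP 1, 13.8% of all genes passed. Some folds turned sign. That of Slc10a4 was 0.082 after median scaling, 0.085 after quantile normalization, 0.076 without input 3, 0.20 without IP 1 and 0.37 with median scaling added. That of Slc5a7 was 0.046 without IP 1 and 0.21 with scaling added, that of Ddc 0.00013 with both, that of Maob 0.17 without IP 3 and that of Chat -0.019 without IP 2. Over the single omissions the folds ran from -0.32 to 0.20 for Slc10a4, from -0.43 to 0.046 for Slc5a7, from -0.71 to 0.17 for Maob and from -0.019 to 0.56 for Chat. The cause of these moves was not tested, apart from median scaling, which adds the same amount to every fold. Among the genes named by rule, Slc18a2, Sult1a1 and Slc44a2 did not pass the filter of 5 RPKM and were not tested under it. That filter left 38 related genes tested, beside 47 in the main fit. The difference in the ratio of Ddc to Th stayed negative, from -1.26 to -0.37 over the omissions, and that of Maob to Maoa positive, from 0.047 to 0.68. Asl, named as a nearest profile, turned to 0.12 after median scaling, 0.091 after quantile normalization and 0.0093 without IP 1 with median scaling (-0.23 to 0.22 over the omissions), and Prmt1 to 0.070 after median scaling (-0.29 to 0.11 over the omissions). No other direction changed among the genes named by rule under these alternatives. Without counts, the precision that depth sets cannot be given.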
